A study of Rattus norvegicus with 24 samples.

Results

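The genes of the corticotropin-releasing factor (CRF) and glucocorticoid stress axis were taken by symbol from the FPKM tables of nucleus accumbens (NAc) RNA. Of the 10 genes on the list, 9 had a row among the 23950 genes of each table, and all 9 passed the filter on low values in every comparison. They are the ligands Crh and Ucn, the receptors Crhr1 and Crhr2, the binding protein Crhbp, the mineralocorticoid receptor Nr3c2, the glucocorticoid responsive genes Fkbp5 and Sgk1, and the steroid enzyme Hsd11b1. Nr3c1, the glucocorticoid receptor, was not analysed here.

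The series holds 24 libraries of NAc from Sprague Dawley rat pups at postnatal day (P) 14, with 4 libraries in each of 6 groups. For the F1 in utero oxycodone (IUO) group, F0 females were gavaged with oxycodone (oxy), an opioid analgesic, at 10 mg/kg/day rising to 15 mg/kg/day before mating, and treatment lasted through gestation until weaning. For the F1 postnatal oxycodone (PNO) group, dams were given 15 mg/kg/day only from birth until weaning, so that pups met the drug through milk. The F1 saline (SAL) group is the control. F1 females that had never been dosed themselves were bred with untreated males, and their pups form the F2 IUO, F2 PNO and F2 SAL groups. Dams of the F1 oxy groups were therefore still under treatment when their pups were sampled, whereas the dams of F2 pups were not. The labels give neither the sex nor the litter of a pup, so a p-value here measures only the spread between the 4 libraries of a group.

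CRF, the product of Crh, is the peptide that starts the hormonal stress response in the hypothalamus, and it also acts as a local transmitter in forebrain regions that include the NAc, where it alters dopamine release and motivated behaviour. It signals through the G protein coupled receptors encoded by Crhr1 and Crhr2, while the secreted protein encoded by Crhbp binds CRF and urocortin outside the cell. The corticosterone released at the end of the cascade enters cells and binds the mineralocorticoid and glucocorticoid receptors, which induce target genes such as Fkbp5 and Sgk1. The enzyme encoded by Hsd11b1 regenerates active corticosterone from its inactive 11-keto form inside cells.

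All members were expressed at low to moderate levels. FPKM values are scaled for gene length and library size, which allows levels of different genes to be set side by side. Libraries still differed, with FPKM sums from 535866 to 766781 and between 4782 and 7532 genes listed at 0. Sgk1 had the highest level, at 13.2 ± 2.12 FPKM (SD, n = 24 libraries), followed by Fkbp5 at 9.89 ± 1.64 FPKM. Crh at 3.72 ± 1.47, Crhr1 at 3.57 ± 1.21, Hsd11b1 at 3.42 ± 1.01, Nr3c2 at 3.25 ± 1.12 and Crhbp at 2.76 ± 0.88 FPKM lay close together. Crhr2 was lower, at 0.930 ± 0.742 FPKM, and Ucn had a median of 0.33 FPKM and was listed at 0 in 7 of the 24 libraries. Between the lowest and the highest library, Fkbp5 varied by 1.92-fold and Sgk1 by 2.02-fold, but Nr3c2 by 11.6-fold and Crhr2 by 31.2-fold. Differences in level may reflect fewer cells of a type or less RNA per cell, which cannot be told apart in bulk tissue.

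**Figure D1:**
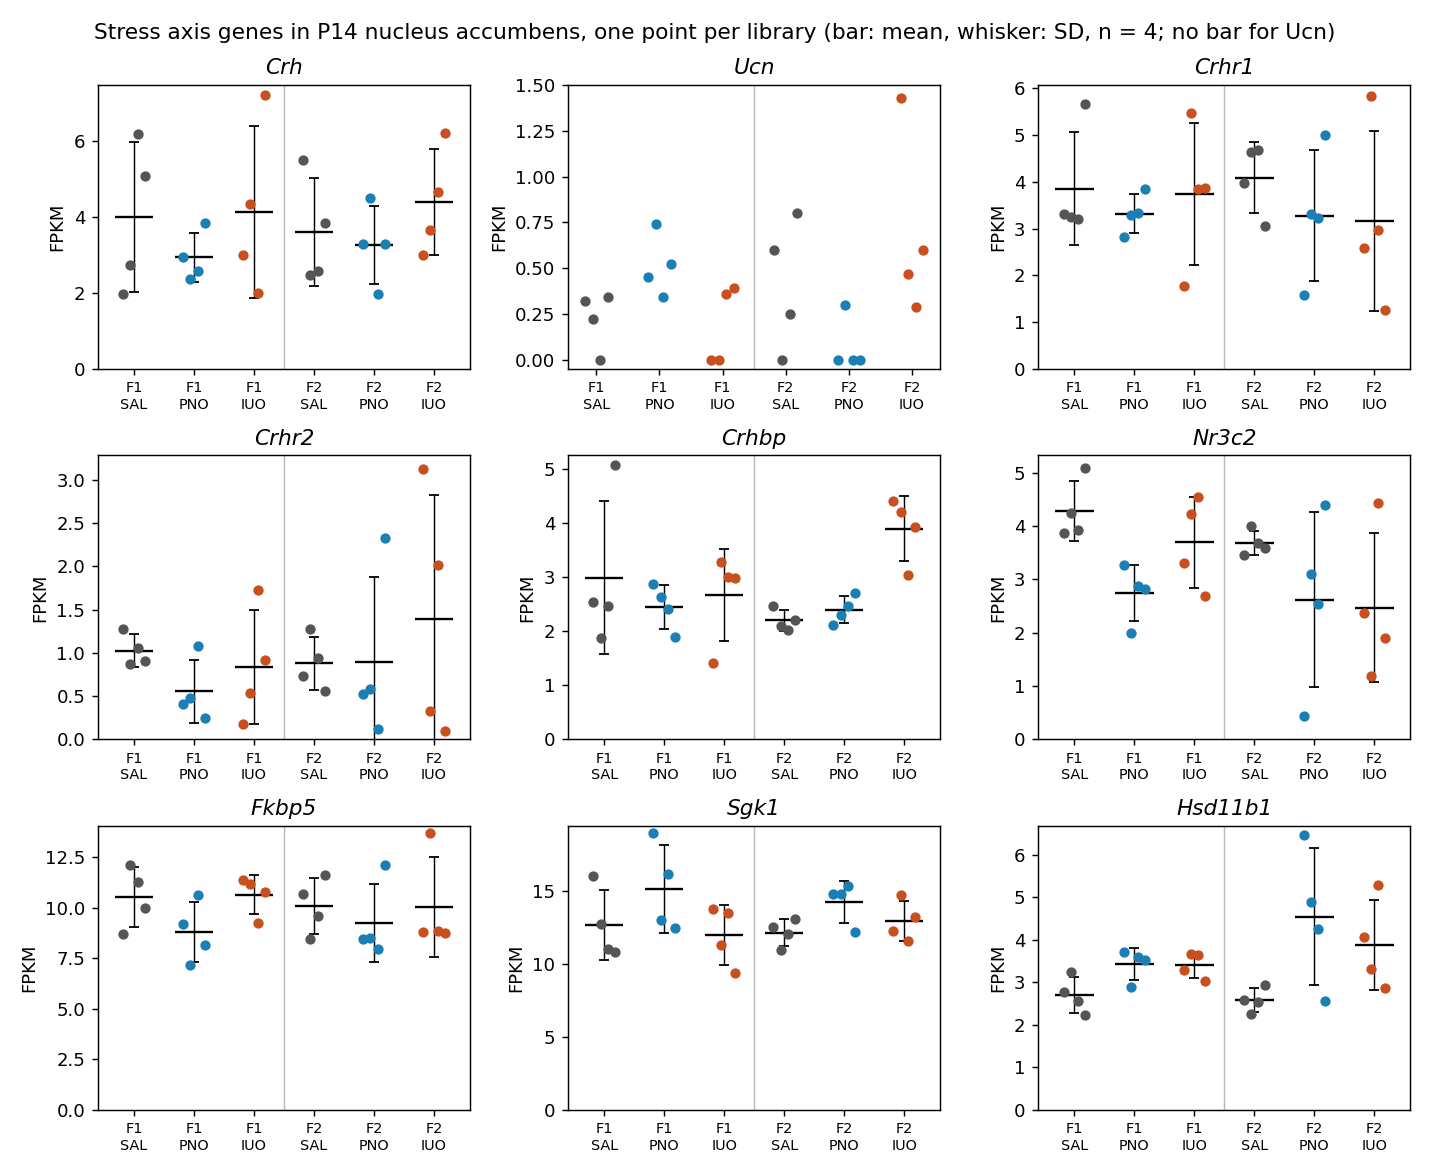
FPKM of the 9 stress axis genes (vertical axes, linear, 1 panel per gene) in the 6 groups, with F1 left and F2 right of the grey line. Each point is 1 library, black bars are group means and whiskers are SD (n = 4). Ucn has no bars because 7 of its values are listed at 0, and the lower whiskers of Crhr2 in F2 PNO and F2 IUO run below 0 and are not drawn past it. The 4 F2 IUO libraries of Crhbp lie above all F2 SAL and F2 PNO libraries, and the 4 F1 PNO libraries of Nr3c2 lie below all F1 SAL libraries.

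The dissected tissue differed between libraries, and this bears on several members. The summed FPKM of 5 striatal markers (Drd1, Drd2, Ppp1r1b, Adora2a and Rgs9) was between 247 and 813, so that striatal RNA was present in every library. Summed choroid plexus markers were at least 995 FPKM in 6 libraries (F1 SAL 1, F1 PNO 3, F1 IUO 3 and 4, F2 PNO 4 and F2 IUO 1) and at most 255 FPKM in the other 18. Cortex markers were between 183 and 361 FPKM in F2 IUO, between 135 and 229 FPKM in F2 SAL and between 24.5 and 319 FPKM in F2 PNO. Y-linked genes summed to between 27.2 and 36.1 FPKM in all 4 F1 SAL libraries and to at most 2.57 FPKM in all F2 SAL libraries. The oxy groups held libraries of both kinds, and F1 IUO 1 lay between them at 6.59 FPKM. By these genes sex, which the labels do not give, was not balanced between the groups. The part of these differences in the results was not tested beyond the adjusted fits given beside them.

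Each pair of groups was compared with limma on log2(FPKM + 0.1) across all genes, and a member was counted where its unadjusted p was under 0.05 and its mean FPKM differed by at least 1.5-fold. After Benjamini-Hochberg adjustment over all genes, 0 members had an adjusted p under 0.05 in any of the 9 comparisons, and the smallest among them, by limma, was 0.236. Over all genes such calls were also few, at 0.133% in F1 IUO against F1 PNO, 0.0343% in F2 SAL against F1 SAL, 0.0288% in F2 PNO against F1 PNO, 0.00576% in F2 PNO against F2 SAL and 0 in the others. By the unadjusted rule, 0 of 9 members were counted in F1 IUO against F1 SAL, where 2.45% of all genes were. There were 2 in F1 PNO against F1 SAL (4.48% of all genes), 1 in F1 IUO against F1 PNO (7.08%), 2 in F2 IUO against F2 SAL (4.19%), 1 in F2 PNO against F2 SAL (4.54%) and 2 in F2 IUO against F2 PNO (3.38%). Between generations there were 0 for SAL (2.72%), 1 for IUO (8.51%) and 1 for PNO (3.24%). Groups that did not overlap were found for 1 member in 4 comparisons, named below, and for 0 members in the other 5, where 2.54% of all genes (F1 IUO against F1 SAL), 10.5% (F1 IUO against F1 PNO), 7.01% (F2 PNO against F2 SAL), 4.98% (F2 SAL against F1 SAL) and 10.7% (F2 IUO against F1 IUO) did not overlap.

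Crhbp, the gene of the CRF-binding protein, had its clearest difference in F2 IUO pups. The 4 F2 IUO libraries had 4.4, 4.19, 3.04 and 3.93 FPKM. In F2 SAL the values were 2.47, 2.10, 2.02 and 2.20 FPKM. The F2 PNO libraries had 2.11, 2.30, 2.47 and 2.70 FPKM. Every F2 IUO library was thus above every library of both other F2 groups. The mean was 1.77-fold that of F2 SAL (3.89 ± 0.60 against 2.20 ± 0.20 FPKM, SD, n = 4), with a log2 difference of 0.79 (SE 0.20, limma p = 0.00293, adjusted p = 0.413, exact permutation p = 0.0286). Against F2 PNO the log2 difference was 0.67 (SE 0.22, limma p = 0.0148, adjusted p = 0.605, exact permutation p = 0.0286). The exact p of 0.0286 is the smallest that 4 against 4 libraries can give. Leaving out any 1 of the 8 libraries kept the log2 difference from F2 SAL between 0.72 and 0.90, with an unadjusted p of at most 0.0100.

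Of the 9 members, 2 (Crhbp and Hsd11b1) met the rule as higher in F2 IUO than in F2 SAL, whereas 1.15% of all genes tested did so, and 1 member had groups that did not overlap, against 5.11% of all genes. Between F2 IUO and F2 PNO, 2 members (Ucn and Crhbp) met the rule as higher, against 1.59% of all genes, and 1 member did not overlap, against 4.74% of all genes. Of these, Ucn passed the filter only with the F2 IUO libraries, as given below.

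Markers of neighbouring tissue moved with Crhbp in F2 IUO. Summed cortex markers were higher in F2 IUO than in F2 SAL in 3 of the 4 libraries. With the mean log2 value of these markers as a covariate the log2 difference of Crhbp was 0.64 (SE 0.30), no longer at an unadjusted p under 0.05. F2 IUO 3, at 183 FPKM of summed cortex markers, lay inside the F2 SAL range for that sum and had 3.04 FPKM of Crhbp. By the mean log2 value, F2 IUO 3 was at 3.62, above all F2 SAL libraries (2.33 to 3.55). On that scale F2 IUO 4, with 3.93 FPKM of Crhbp, lay inside their range at 3.31. Interneuron markers (Sst, Npy, Pvalb, Chat and Vip) summed to between 372 and 589 FPKM in F2 IUO and between 348 and 447 FPKM in F2 SAL, and with them as a covariate the log2 difference was 0.78 (SE 0.21). Y-linked genes were at 30.4 FPKM or more in F2 IUO 2, 3 and 4 and at 0.57 FPKM in F2 IUO 1. That library had the most Crhbp of the group, 4.4 FPKM, and the difference from F2 SAL was 0.94 (SE 0.28) with a Y-linked covariate. The difference between F2 IUO and F2 PNO was 0.66 (SE 0.30) with that covariate, no longer at an unadjusted p under 0.05, nor was it so with a block of same-numbered libraries.

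**Figure D2:**
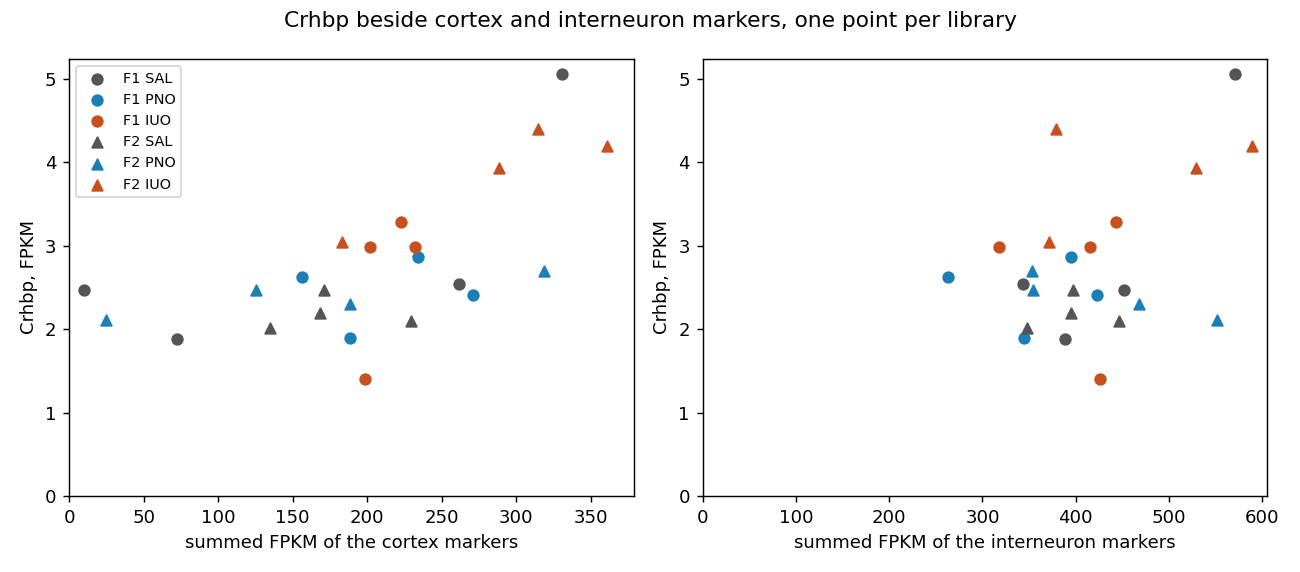
Crhbp FPKM (vertical axes) against the summed FPKM of cortex markers (left) and of interneuron markers (right), 1 point per library, with circles for F1, triangles for F2 and colours for treatment. The F2 IUO triangles lie between 3.04 and 4.4 FPKM of Crhbp, and 3 of them are to the right of all F2 SAL triangles on the cortex axis.

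In F1, no such difference in Crhbp was seen. The F1 SAL libraries had 2.54, 1.88, 2.47 and 5.06 FPKM, the F1 PNO libraries 2.86, 2.62, 2.41 and 1.89 FPKM and the F1 IUO libraries 1.4, 3.28, 2.99 and 2.98 FPKM, and all 3 groups overlapped. The log2 difference between F1 IUO and F1 SAL was -0.13 (95% interval -0.92 to 0.66). The change of this contrast from F1 to F2 was 0.92 (SE 0.42, limma interaction, adjusted p = 0.924), where 5.15% of all genes had an unadjusted interaction p under 0.05. Without F1 SAL 4, the library with 5.06 FPKM, this interaction was 0.64, and in 8 of the 16 fits with 1 library left out its unadjusted p was above 0.05. It was also above 0.05 with a block of same-numbered libraries.

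Ucn, which encodes the CRF family peptide urocortin, was near the lower limit of these tables and is given library by library. The F2 IUO libraries had 1.43, 0.47, 0.29 and 0.60 FPKM. In F2 PNO, library 2 had 0.30 FPKM and the other 3 were listed at 0. F2 SAL had 0.60, 0.25 and 0.80 FPKM in 3 libraries and was listed at 0 in library 2. On the log2(FPKM + 0.1) scale F2 IUO was above F2 PNO by 2.30 (SE 0.63, limma p = 0.00490, adjusted p = 0.463, exact permutation p on FPKM = 0.0571). Of the 4 F2 IUO libraries, 3 were above every F2 PNO library. In each comparison where Ucn met the rule, it reached the filter of 0.1 FPKM in 4 libraries only with the higher group. Its calls there, and the shares of all genes beside them, are therefore not independent of that filter. The size of a difference from values of 0 depends on the pseudocount, and with a pseudocount of 1 it was 0.63.

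The order of the exposure groups for Ucn was the opposite in F1. F1 PNO had 0.45, 0.74, 0.34 and 0.52 FPKM, whereas F1 IUO had 0.36 and 0.39 FPKM in libraries 3 and 4 and was listed at 0 in the other 2. F1 SAL had 0.32, 0.22 and 0.34 FPKM and was listed at 0 in library 3. The log2 difference of F1 IUO from F1 PNO was -1.45 (SE 0.63, limma p = 0.0443, adjusted p = 0.290, exact permutation p = 0.0857), the single member that met the rule there, as lower, against 2.80% of all genes. Of 12 alternatives, 5 kept this difference at an unadjusted p under 0.05, 6 did not and 1 reversed its sign, at 0.13 with thalamus markers as a covariate. The 6 included a block of same-numbered libraries, one fit of all libraries, and cortex, hypothalamus or interneuron markers as a covariate. The unadjusted p was also above 0.05 in 6 of the 8 fits with 1 library left out. Thalamus markers summed to between 95.4 and 235 FPKM in F1 PNO and between 21.6 and 121 FPKM in F1 IUO.

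The reversal itself was tested as an interaction. The IUO against PNO contrast of Ucn was 3.76 higher in F2 than in F1 (SE 0.90, limma interaction, adjusted p = 0.618), where 5.76% of all genes had an unadjusted p under 0.05. The PNO against SAL contrast differed by -2.55 (F2 minus F1, SE 0.95, limma interaction, adjusted p = 1.0), where 4.06% of all genes had an unadjusted p under 0.05. Both stayed at an unadjusted p under 0.05 in all 16 fits with 1 library left out, but the PNO against SAL interaction did not with thalamus markers as a covariate (-1.98). Between the generations, all 4 F2 PNO libraries were below all 4 F1 PNO libraries for Ucn, with a log2 difference of -2.07 (SE 0.52, limma p = 0.00313, adjusted p = 0.824, exact permutation p = 0.0286). It was the only member lower by the rule in that comparison, against 1.83% of all genes, and the only one that did not overlap, against 3.34%. Ucn passed the filter there through F1 PNO, since of the F2 PNO libraries only library 2 was above 0. With hypothalamus markers as a covariate the difference was -1.45, no longer at an unadjusted p under 0.05. F2 IUO was above F1 IUO by 1.68 (SE 0.71, limma p = 0.0400, adjusted p = 0.311, exact permutation p = 0.0857), where 1 member met the rule as higher, against 1.64% of all genes. That difference had an unadjusted p above 0.05 in 5 of the 8 fits with 1 library left out, with a block of same-numbered libraries, and with thalamus, cortex, hypothalamus or interneuron markers as a covariate. These Ucn estimates include values of 0, so their size depends on the pseudocount. Over the alternatives, which included a pseudocount of 1, the IUO against PNO interaction was as near to 0 as 0.99. The PNO against SAL interaction was as near as -0.68, F2 PNO against F1 PNO as near as -0.50, and F2 IUO against F1 IUO as near as 0.49.

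Upstream sequences of Ucn and Crhbp are shown because these 2 genes met the rule in F2 IUO against F2 PNO and both hold a cyclic AMP response element half-site. The windows are the 250 bases before the RefSeq start on assembly GRCr8, read on the gene's strand from 5′ to 3′. Of the 9 members, 6 had an entry (Sgk1, Crhbp, Crhr2, Ucn, Crhr1 and Fkbp5, with 9 windows), and Crh, Nr3c2 and Hsd11b1 had none. Capitals mark the half-site TGACG, or CGTCA where it lies on the other strand. In Ucn both orientations overlap to form the full palindrome TGACGTCA.
Crhbp, chr2:28439447-28439696, minus strand: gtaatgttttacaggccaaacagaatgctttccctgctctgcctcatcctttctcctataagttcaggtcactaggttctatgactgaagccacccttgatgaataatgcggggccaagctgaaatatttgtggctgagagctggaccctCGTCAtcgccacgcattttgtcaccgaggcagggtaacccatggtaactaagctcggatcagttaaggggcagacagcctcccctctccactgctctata
Ucn, chr6:30957836-30958085, plus strand: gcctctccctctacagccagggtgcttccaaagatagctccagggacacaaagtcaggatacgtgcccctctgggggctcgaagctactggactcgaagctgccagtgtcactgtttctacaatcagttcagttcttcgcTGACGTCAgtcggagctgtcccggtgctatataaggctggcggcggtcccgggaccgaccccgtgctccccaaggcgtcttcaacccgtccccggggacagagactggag
The half-site begins 100 bases before the start in Crhbp and 110 bases before it in Ucn. Searched on both strands, the half-site was in 18.2% of 33469 promoter windows of the same length and in 3 of the 9 member windows, the third being that of Crhr2. The full TGACGTCA was in 1.59% of all windows and in 1 of the member windows. The letters AGAACA, a half-site of the glucocorticoid response element, were in 17.5% of all windows and in 0 of the 9 member windows. These matches describe letters in the windows only.

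Crh itself showed no difference between groups beyond the spread of its libraries. Group means were 4.00 ± 1.98 FPKM in F1 SAL, 2.94 ± 0.66 in F1 PNO, 4.14 ± 2.26 in F1 IUO, 3.60 ± 1.41 in F2 SAL, 3.26 ± 1.03 in F2 PNO and 4.39 ± 1.4 in F2 IUO (SD, n = 4). Single libraries were spread from 1.96 to 7.22 FPKM, and the lowest library of each group was below 3.1 FPKM. IUO had the highest mean in both generations, with a log2 difference from SAL of 0.04 in F1 (95% interval -0.96 to 1.04) and of 0.30 in F2 (95% interval -0.40 to 1.0). The ratio of Crh to Crhbp was between 0.669 and 2.51 over the 24 libraries and above 1 in 18 of them.

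Among the receptors, Crhr1 was above Crhr2 in 23 of the 24 libraries, with a median ratio of 5.21. Crhr1 means were 3.85 ± 1.21 FPKM in F1 SAL, 3.32 ± 0.42 in F1 PNO, 3.73 ± 1.52 in F1 IUO, 4.09 ± 0.76 in F2 SAL, 3.28 ± 1.41 in F2 PNO and 3.16 ± 1.93 in F2 IUO (SD, n = 4). The F2 IUO libraries were spread from 1.25 to 5.84 FPKM, which covers the range of every other group. None of its comparisons reached an unadjusted p under 0.05. The lowest interval bound among the 6 comparisons of exposure was -1.43 and the highest was 0.95 on the log2 scale.

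Crhr2 met the rule in 1 comparison, where F1 PNO was lower than F1 SAL. The F1 PNO libraries had 0.41, 0.48, 1.08 and 0.25 FPKM, and the F1 SAL libraries had 1.28, 0.87, 1.05 and 0.90 FPKM. The groups overlapped through F1 PNO 3. The mean was 0.541 of the control (log2 difference -0.91, SE 0.37, limma p = 0.0329, adjusted p = 0.313, exact permutation p = 0.114). Without any 1 of 5 of the libraries (F1 SAL 1 or 3, or F1 PNO 1, 2 or 4) the unadjusted p was above 0.05. It was also above 0.05 with thalamus, cortex, hypothalamus or Y-linked markers as a covariate.

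Crhr2 moved with the choroid plexus markers of the library and also with its septum markers. This receptor is known to be expressed in the choroid plexus and in the lateral septum of the rat. The 6 libraries rich in choroid plexus markers had 1.28, 1.08, 1.72, 0.92, 2.33 and 3.12 FPKM of Crhr2, and 4 of the 6 highest Crhr2 libraries were among them. Over the 24 libraries, Pearson's r of Crhr2 with the mean log2 value of the choroid plexus markers was 0.69 and Spearman's rho was 0.74. With the septum markers r was 0.56 and rho was 0.53. These are given as a description since each pair of values comes from 1 library. The other 2 of the 6 highest Crhr2 libraries had few choroid plexus markers. F2 IUO 3, with 2.02 FPKM of Crhr2, had 12.7 FPKM of these markers and 99.4 FPKM of septum markers (Zic1, Zic2, Zic4 and Trpc4), the second highest septum value of the series. F2 SAL 2, with 1.28 FPKM of Crhr2, had 16.7 FPKM of choroid plexus and 54.0 FPKM of septum markers, high in neither. With the choroid plexus markers as a covariate the difference of F1 PNO from F1 SAL was -0.96 (SE 0.29). In F2, Crhr2 was between 0.10 and 3.12 FPKM in IUO and between 0.12 and 2.33 FPKM in PNO, which contained the whole F2 SAL range of 0.56 to 1.28 FPKM.

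**Figure D3:**
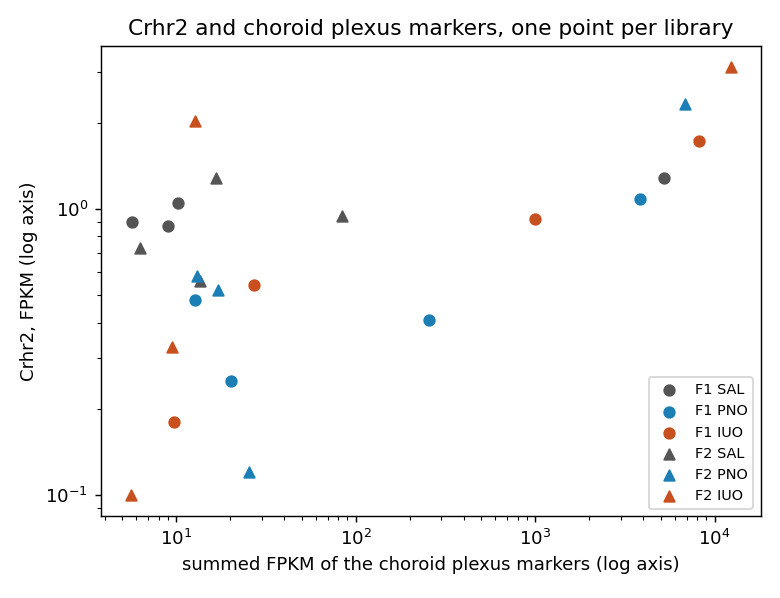
Crhr2 FPKM (vertical axis, log scale) against the summed FPKM of choroid plexus markers (horizontal axis, log scale), 1 point per library, with circles for F1, triangles for F2 and colours for treatment. The 6 libraries with at least 995 FPKM of the markers lie between 0.92 and 3.12 FPKM of Crhr2, and F2 IUO 3 lies at 2.02 FPKM with 12.7 FPKM of the markers.

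Nr3c2, which encodes the mineralocorticoid receptor, was lower in F1 PNO than in F1 SAL. The F1 SAL libraries had 3.87, 4.24, 3.93 and 5.09 FPKM, and the F1 PNO libraries had 3.27, 2.0, 2.88 and 2.82 FPKM, with no overlap. The mean was 0.640 of the control (2.74 ± 0.53 against 4.28 ± 0.56 FPKM, SD, n = 4), a log2 difference of -0.64 (SE 0.18, limma p = 0.00588, adjusted p = 0.236, exact permutation p = 0.0286). Leaving out any 1 library kept it between -0.73 and -0.50 with an unadjusted p of at most 0.0193. Together with Crhr2 it made 2 members lower by the rule in F1 PNO, against 2.63% of all genes. It was the only member that did not overlap there, against 8.27% of all genes.

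Thalamus markers moved in the other direction in this comparison. They summed to between 95.4 and 235 FPKM in F1 PNO and between 16.5 and 121 FPKM in F1 SAL, and with them as a covariate the log2 difference of Nr3c2 was -0.39 (SE 0.23), no longer at an unadjusted p under 0.05. The same was true with septum markers as a covariate, at -0.46 (SE 0.24), and in one fit of all 24 libraries, at -0.64 (SE 0.44). With cortex, interneuron, choroid plexus, hypothalamus or Y-linked markers it was between -0.79 and -0.64, at an unadjusted p under 0.05. Microglia markers moved in the same direction as Nr3c2, at 81.7 to 100.1 FPKM in F1 PNO and 90.3 to 132 FPKM in F1 SAL. Astrocyte markers were at 200 to 273 FPKM in F1 PNO and 189 to 293 FPKM in F1 SAL. Over the 24 libraries Pearson's r of Nr3c2 was 0.70 with astrocyte and 0.56 with microglia markers (Spearman's rho 0.60 and 0.61), as a description, and the part of these cells in the result was not tested.

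The other groups did not differ for Nr3c2 at an unadjusted p under 0.05. F1 IUO had 3.31, 4.23, 4.55 and 2.69 FPKM, with a mean between those of the other F1 groups. In F2 the saline libraries were tight, at 3.46, 4.00, 3.68 and 3.58 FPKM, whereas F2 PNO had 0.44, 3.10, 2.54 and 4.4 FPKM and F2 IUO had 2.36, 1.18, 4.43 and 1.89 FPKM. In each F2 oxy group 3 of the 4 libraries were below all F2 SAL libraries and 1 was above them. The log2 difference from F2 SAL was -0.71 in F2 IUO (95% interval -1.49 to 0.07) and -0.83 in F2 PNO (95% interval -2.12 to 0.47). The value of 0.44 FPKM in F2 PNO 1 was the lowest of the series. The 3 genes with the highest Pearson's r with Nr3c2 (Zfp236, Amer1 and AABR07058539.1) also had their lowest value in that library. F2 PNO 1 stood apart in markers as well, with the lowest cortex (24.5 FPKM) and astrocyte (168 FPKM) sums of its group. Its oligodendrocyte sum (3626 FPKM) was the highest of the series, and it had the most Hsd11b1 (6.47 FPKM). The part of the quality or make-up of this library in these values was not tested.

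Hsd11b1, the enzyme that regenerates corticosterone, had a higher mean in all 4 oxy groups than in the saline group of the same generation. In F2 the saline libraries had 2.59, 2.25, 2.53 and 2.94 FPKM. The F2 PNO libraries had 6.47, 4.89, 4.26 and 2.56 FPKM, and the F2 IUO libraries had 4.06, 3.31, 5.28 and 2.87 FPKM. In both oxy groups 3 of the 4 libraries were above every saline library. The F2 PNO mean was 1.76-fold the control (log2 difference 0.73, SE 0.28, limma p = 0.0278, adjusted p = 0.421, exact permutation p = 0.0857), the only member higher by the rule there, against 1.8% of all genes. For F2 IUO it was 1.51-fold (log2 difference 0.54, SE 0.23, limma p = 0.0412, adjusted p = 0.567, exact permutation p = 0.0571).

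The F1 values of Hsd11b1 were closer together. F1 SAL had 2.77, 3.25, 2.57 and 2.24 FPKM, F1 PNO had 3.72, 2.89, 3.59 and 3.53 FPKM, and F1 IUO had 3.29, 3.67, 3.65 and 3.03 FPKM. In each F1 oxy group 3 of the 4 libraries were above all saline libraries. The log2 difference from F1 SAL was 0.34 in PNO (SE 0.16, exact permutation p = 0.0571) and 0.33 in IUO (SE 0.18, exact permutation p = 0.0571), neither at an unadjusted p under 0.05 by limma. The 2 contrasts of a generation share their saline libraries and are not independent. No change of either contrast from F1 to F2 was detected, with interactions of 0.39 (95% interval -0.30 to 1.08) for PNO and 0.21 (95% interval -0.38 to 0.80) for IUO. The F2 differences rested on few libraries, since 6 of 8 fits for PNO and 5 of 8 for IUO with 1 library left out had an unadjusted p above 0.05. The lowest values were 0.54 without F2 PNO 1 and 0.38 without F2 IUO 3. Both differences were above 0.05 with a block of same-numbered libraries, and that of F2 IUO also with cortex, hypothalamus, choroid plexus, interneuron or Y-linked markers as a covariate. F2 PNO 1, the library with most Hsd11b1, also had the highest oligodendrocyte markers of the series, 3626 FPKM, where the other F2 PNO libraries had 872 to 2310, F2 SAL 1106 to 2235 and F2 IUO 948 to 1935 FPKM. Microglia markers were at 100.3 to 112 FPKM in F2 PNO, 85.5 to 132 FPKM in F2 IUO and 106 to 145 FPKM in F2 SAL. Over the 24 libraries Pearson's r of Hsd11b1 was 0.46 with oligodendrocyte and -0.51 with microglia markers (Spearman's rho 0.33 and -0.51), as a description, and their part in the result was not tested.

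Fkbp5, a co-chaperone of the glucocorticoid receptor that glucocorticoids induce, varied least of the members from the lowest to the highest library (1.92-fold). Its group means also spanned the least (1.21-fold). Group means were 10.5 ± 1.48 FPKM in F1 SAL, 8.79 ± 1.49 in F1 PNO, 10.7 ± 0.97 in F1 IUO, 10.1 ± 1.37 in F2 SAL, 9.25 ± 1.94 in F2 PNO and 10.0 ± 2.46 in F2 IUO (SD, n = 4). The PNO group had the lowest mean in both generations. Its log2 difference from SAL was -0.26 in F1 (95% interval -0.60 to 0.08) and -0.14 in F2 (95% interval -0.53 to 0.26), neither at an unadjusted p under 0.05.

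Sgk1, a kinase that corticosteroids induce, had its highest mean in the PNO group of both generations. The F1 PNO libraries had 18.99, 13.03, 16.18 and 12.48 FPKM, against 16.04, 12.74, 11.06 and 10.81 FPKM in F1 SAL. In F2 PNO the values were 14.78, 14.82, 15.36 and 12.16 FPKM, against 12.52, 10.95, 12.04 and 13.11 FPKM in F2 SAL. Both pairs overlapped, and the log2 differences were 0.26 (95% interval -0.13 to 0.64) and 0.23 (95% interval -0.06 to 0.51). The IUO means were 12 ± 2.05 FPKM in F1 and 12.9 ± 1.38 FPKM in F2 (SD, n = 4), near those of SAL at 12.7 ± 2.41 and 12.2 ± 0.91 FPKM. Over the 24 libraries Sgk1 was lower where Crh was higher, with a Pearson's r of -0.53 and a Spearman's rho of -0.48, given as a description. It was the largest r in size among the 36 pairs of members, while the largest rho was 0.56, for Crhr2 with Nr3c2.

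**Figure D4:**
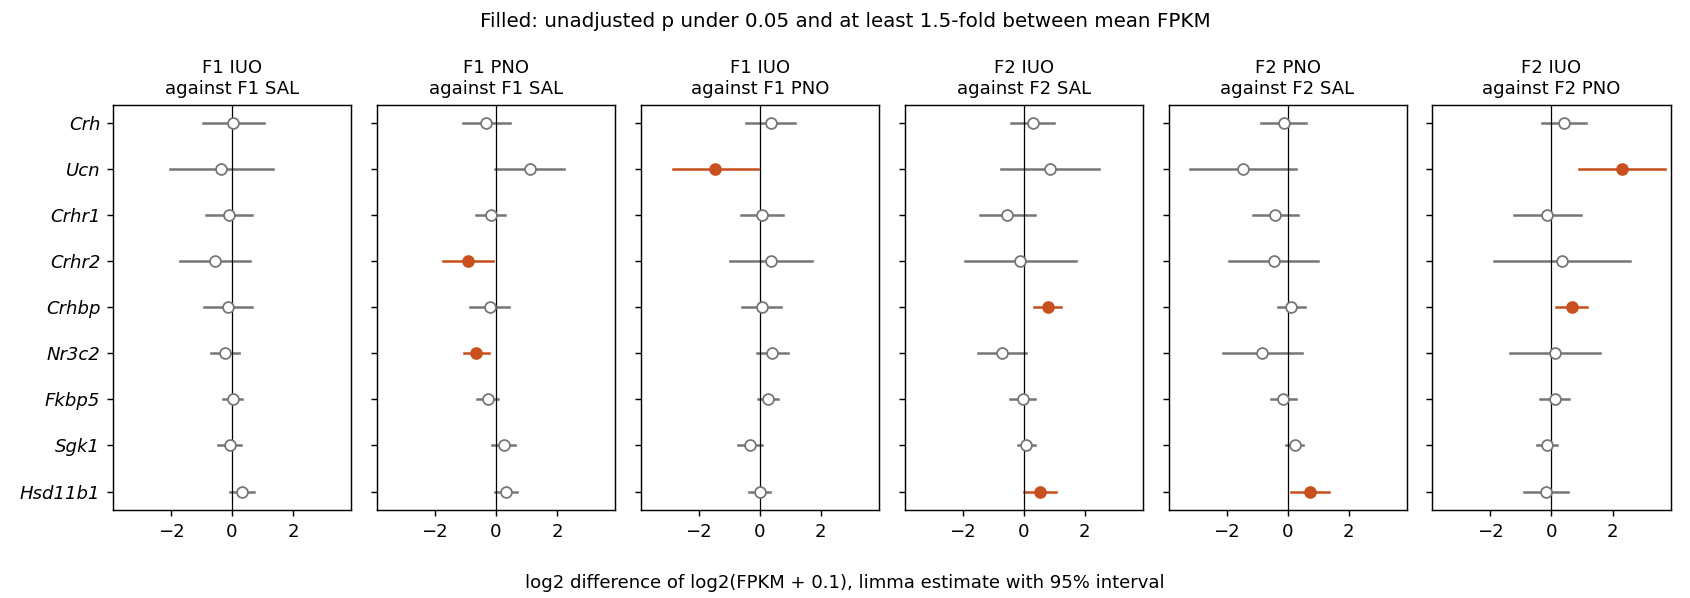
Log2 differences of the 9 stress axis genes in the 6 comparisons of exposure within a generation (horizontal axes, limma estimates on log2(FPKM + 0.1) with 95% intervals, n = 4 against 4). Filled orange points have an unadjusted p under 0.05 and at least a 1.5-fold ratio of means. F1 IUO against F1 SAL has none, and the other 5 panels hold 1 or 2 each.

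In F1 IUO against F1 SAL, 0 of the 9 members met the rule or had an unadjusted p under 0.05 by limma, where 2.45% of all genes met the rule and 3.91% had such a p, and the smallest unadjusted p was that of Hsd11b1. The same held for F2 SAL against F1 SAL, with 0 of 9 members, where 2.72% of all genes met the rule and 8.48% had such a p. The median log2 difference of the members was -0.10 in the first and -0.06 in the second, against 0.01 and -0.02 over all genes tested.

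When the 6 groups were ordered by their mean for each member, 44 of the 45 neighbouring pairs of groups overlapped. The exception was Nr3c2, where F2 SAL (3.68 FPKM) and the next lower group, F1 PNO (2.74 FPKM), did not overlap. From the lowest to the highest group mean, the members spanned from 1.21-fold for Fkbp5 to 2.51-fold for Crhr2, with Ucn left aside because of its values of 0.

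Other genes of the pathway were followed in 3 lists, and 0 of their genes had an adjusted p under 0.05 in any comparison by limma. Of 10 tested partners of CRF and the pituitary-adrenal axis, 2 met the rule as higher in F2 IUO than in F2 SAL, where 1.15% of all genes did, with 8 of 10 differences above 0 and a median of 0.26 against -0.08 over all genes. They were Pomc, the precursor of ACTH and beta-endorphin, with 4.01 against 2.07 FPKM (limma adjusted p = 0.553), and Pcsk1, a convertase that cleaves it, with 2.42 against 1.58 FPKM (limma adjusted p = 0.553). Adcyap1, which encodes the peptide PACAP, met the rule in F1 PNO, where it was above F1 SAL, and in F2 IUO, where it was above F2 PNO, and Avpr1a, a vasopressin receptor, met it as lower in F1 PNO than in F1 SAL. This made 2 of 11 partners in F1 PNO against F1 SAL (4.48% of all genes) and 1 of 9 in F2 IUO against F2 PNO (3.38%). In F2 IUO against F2 SAL, 6 of 6 tested hypothalamus markers (median log2 difference 0.90) and 6 of 6 cortex markers (1.16) were higher. In F1 PNO against F1 SAL, 5 of 5 thalamus markers were higher (1.52), and in F2 IUO against F2 PNO 6 of 6 cortex markers were (1.29). The part of these tissues in the differences of the partners was not tested.

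Of 12 tested receptor chaperones, steroid enzymes and co-regulators, 1 met the rule in any comparison of exposure, in F1 IUO against F1 PNO, where 7.08% of all genes did. Hsd11b2, which inactivates corticosterone, was at 0.235 FPKM in F1 IUO and 1.47 FPKM in F1 PNO, with no overlap (limma adjusted p = 0.123). The thalamus markers differed in the same direction between these groups, and their part in this difference was not tested. In F1 PNO against F1 SAL, 5 of the 12 had an unadjusted p under 0.05 by limma, all at less than 1.5-fold. Of all genes, 13.9% had such a p at any fold. Groups did not overlap for 4 of the 12, against 8.27% of all genes. The 5 included Ptges3 and Hsp90aa1 as higher, which belong to the receptor's chaperone complex, and the co-activators Ncoa2 and Ncoa1 as lower. Among the glucocorticoid-induced genes, 1 of 14 tested met the rule in F1 PNO against F1 SAL (4.48% of all genes), namely Cdkn1a (15.3 against 9.21 FPKM, limma adjusted p = 0.355), and 1 of 14 in F2 PNO against F2 SAL (4.54% of all genes), namely Dusp1 (17.6 against 10.3 FPKM, limma adjusted p = 0.399), both as higher. In F1 IUO against F1 SAL, 0 genes of the 3 lists met the rule or had an unadjusted p under 0.05 by limma.

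For each member with a mean of at least 1 FPKM, the genes most alike over the 24 libraries were found among 13550 genes by Pearson's r on the log2 scale. They were Mrm3, Baiap3 and Rab36 for Crh (r of 0.69 to 0.67), Sgms1, Ogfod1 and Zfp142 for Crhr1 (0.83 to 0.81), and Nup35, Nppa and Tceal7 for Crhbp (0.76 to 0.73). Nr3c2 had the highest r, with Zfp236, Amer1 and AABR07058539.1 (0.93 to 0.91). Spearman's rho for these was 0.73, 0.62 and 0.79. Without the 2 libraries farthest from the median of Nr3c2, r was 0.79, 0.63 and 0.80. For Fkbp5 they were Adra2c, Lpcat4 and Inf2 (0.78 to 0.77), for Sgk1 Hs3st1, Fastkd3 and Cox18 (0.71 to 0.69) and for Hsd11b1 Sft2d1, Nudcd2 and Atg3 (0.82 to 0.77). No pair of members had an r above 0.5 with each other.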

How the data were processed

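NAc was cut from P14 brains with a brain matrix and total RNA was sequenced. The FPKM values deposited by the authors, 1 for each gene in a library, are scaled for gene length and library size. Per the labels and the methods they were made with HISAT2, SAMtools and StringTie on a transcriptome merged over the samples. The genome build is not given in the sources used here, the depth is unknown, and counting error is therefore not given. edgeR, named in the sources for differential expression, needs counts and was not used.

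Values were compared with limma 3.58.1 in R 4.3.3 (lmFit, eBayes with trend) on log2(FPKM + 0.1), over genes with at least 0.1 FPKM in 4 or more of the 8 libraries, with Benjamini-Hochberg adjustment over all of them. The 1.5-fold rule with an unadjusted p under 0.05 comes from the study's methods, and a 2-fold ratio was an alternative. Differences between generations were fitted as interaction terms. Members were in addition tested by two-sided exact permutation over the 35 splits of 4 against 4. The procedure was tested on simulated data. Python 3.11.15 (pandas 2.3.3, matplotlib 3.10.9) was used for tables and figures.

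All members were named, and a member and comparison pair with an unadjusted p under 0.05 was followed through the alternatives. From the pathway lists at most 3 genes per comparison were named, by smallest p among those past the rule, and the 4 chaperones and co-activators under 1.5-fold were named after their values were seen. Some genes of the lists are not reported here. Members and lists were chosen with earlier results of these data known. Alternatives were a pseudocount of 1, other filters, upper-quartile rescaling, 1 fit of all libraries, a block of same-numbered libraries, marker covariates and leaving out each library. As a covariate or in a correlation, a marker list was used as the mean of log2(FPKM + 0.1) over its genes. Covariates of interneuron and septum markers were chosen after seeing the data. Promoter sequences are from RefSeq on GRCr8.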

Additional observations from a re-analysis of the deposited data

Results flagged for a closer look

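In 5 of 54 groups of 4 libraries, 1 library stood apart from the other 3 by Dixon's ratio, the gap to its neighbour over the whole range, which exceeded its 95% critical value. Chance gives about 1 in 20 groups, which is 2.7 of 54. The highest library stood apart for Ucn in F2 PNO, where library 2 had 0.30 FPKM and the others were listed at 0 (ratio 1.0), and for Crhr1 in F1 SAL, where library 4 had 5.66 FPKM (0.959). For Fkbp5 it did so in F2 PNO at 12.13 FPKM in library 4 (0.869) and in F2 IUO at 13.73 FPKM in library 2 (0.978). The lowest library stood apart for Crhbp in F1 IUO, at 1.4 FPKM in library 1 (0.84).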

How the results depend on the processing

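No member had an adjusted p under 0.05 under any alternative. Of the counts of members past the rule, a 2-fold ratio left 0 in F1 PNO, F2 IUO and F2 PNO against SAL and 1 in F2 IUO against F2 PNO. A filter of 1 FPKM, which left Crhr2 untested in F1 PNO against SAL and Ucn in the others, gave 1 in F1 PNO against SAL, 1 in F2 IUO against PNO and 0 in F1 IUO against PNO, both generation contrasts of the oxy groups and both Ucn interactions. Upper-quartile rescaling left 1 in F2 IUO against SAL and against PNO, and one fit of all libraries left 0 in F1 PNO against SAL and F1 IUO against PNO. The thalamus covariate left 0 in F1 PNO against SAL, F1 IUO against PNO, F2 IUO against F1 IUO and the PNO interaction, and with it Ucn in F1 IUO against PNO was 0.13 in place of -1.45; the cause was not tested. The cortex covariate left 1 in F1 PNO against SAL and 0 in F1 IUO against PNO, F2 IUO against SAL and F2 IUO against F1 IUO. The hypothalamus covariate left 1 in F1 PNO and F2 IUO against SAL and 0 in F1 IUO against PNO and both generation contrasts of the oxy groups. The Y-linked covariate left 1 in F1 PNO and F2 IUO against SAL and F2 IUO against PNO and 0 in the IUO against SAL interaction. The choroid plexus covariate left 1 in F2 IUO against SAL, the septum covariate 1 in F1 PNO against SAL, and the interneuron covariate 1 in F2 IUO against SAL and 0 in F1 IUO against PNO, F2 IUO against F1 IUO and the IUO against SAL interaction.

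With 1 library left out, counts were 0 to 2 in F1 PNO against SAL, 0 to 1 in F1 IUO against PNO, 1 to 3 in F2 IUO against SAL, 0 to 1 in F2 PNO against SAL, 2 in F2 IUO against PNO, 0 to 2 in F2 IUO against F1 IUO, 1 to 2 in F2 PNO against F1 PNO, and 0 to 2, 1 to 2 and 1 in the interactions of IUO against SAL, PNO against SAL and IUO against PNO.

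The labels do not say what the number of a library stands for. The correlation of the deviations of same-numbered libraries was between -0.357 and 0.186. In F1 IUO against F1 PNO, 3 of the 4 F1 IUO libraries correlated best with their own number, and in the other comparisons 0 or 1 did. With the replicate block, 1 member met the rule in F2 IUO against SAL and against PNO, and 0 in F1 IUO against PNO, F2 PNO against SAL, F2 IUO against F1 IUO and the IUO against SAL interaction.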

Other observations

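Between generations, a few further genes of the pathway lists met the rule, each with an adjusted p above 0.2 by limma. In the IUO lineage, Pomc was at 4.01 FPKM in F2 and 2.05 FPKM in F1 (adjusted p = 0.311), Mt2A, a metallothionein that glucocorticoids induce, was at 78.2 and 46.4 FPKM with no overlap (adjusted p = 0.249), and Rest, a repressor of neuronal genes, was at 0.72 and 1.56 FPKM (adjusted p = 0.317). In the PNO lineage, Adcyap1 was at 2.82 FPKM in F2 and 6.08 FPKM in F1, with no overlap (limma adjusted p = 0.948). Between the saline groups, Mt1 was at 13.6 FPKM in F2 and 8.46 FPKM in F1 (limma adjusted p = 0.569). Y-linked genes separate the saline groups completely, so that generation and sex, which the labels do not give, cannot be told apart there. Of 3 Y-linked genes tested, 3 also met the rule as lower in F1 IUO than in F1 SAL. In F2 IUO against F2 SAL 3 of 3 met it as higher, so sex was not balanced in those comparisons either.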
